A study of Mus musculus with 12 samples.

Results

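The forkhead (Fox) transcription factors of mouse skin keratinocytes were examined across cells sorted by CD34, a surface protein that marks bulge stem cells of the mouse hair follicle. Members were all genes whose symbol on the array is Fox followed by 1 letter and a number, each read by the brightest probe set (mean of 12 arrays) of those tied to exactly 1 gene. This gave 37 members of 18193 genes measured, and 82 probe sets were tied to 1 of them. Both fractions came from skin of C57 DBA mice. The labels give no age, genotype change or treatment, so the CD34 sort is the one difference they name between the groups, and each RNA stands for a pool of 6 or more mice. Magnetic sorting was done in 3 isolations, and every RNA went on 2 Affymetrix 430 2.0 mouse arrays, which makes 6 CD34+ and 6 CD34- arrays from 3 isolations. Titles leave unsaid how arrays pair up by RNA or, across the fractions, by isolation. The 12 arrays were therefore compared as separate samples, and p-values come out too small if arrays of 1 RNA resemble each other. They measure the spread between arrays, which may be technical. Values are log2 RMA expression, a difference of 1 being a change by a factor of 2, and n = 6 counts arrays.

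Forkhead proteins bind DNA through a winged-helix domain that recognises AT-rich sites. FOXP1 and FOXC1 are known from mouse genetics as factors that keep bulge stem cells at rest, and FOXN1, the gene mutated in the nude mouse, and FOXQ1, the gene of the satin coat, act in the differentiating hair shaft. FOXO proteins are kept out of the nucleus by AKT when insulin and growth factor signalling is on, and otherwise switch on cell cycle brakes and stress defence. FOXM1 drives the genes of G2 phase and mitosis in cycling cells.

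The sort showed in Cd34 itself, at 10.15 ± 0.55 (SD, n = 6) in CD34+ and 3.23 ± 0.30 in CD34- arrays. Keratinocyte markers read high in both fractions, with Krt15 at a mean of 13.24 in CD34+ and 13.52 in CD34- arrays and Krt10 at 13.21 and 13.37. All 7 keratinocyte markers had the lower mean in CD34+ cells. Of these 4 passed, namely Krt14 (-1.37, limma adjusted p = 0.00102), Krt5 (-1.04, adjusted p = 0.00123), Itga6 (-0.82, adjusted p = 0.000898) and Trp63 (-0.42, adjusted p = 0.0294). Over all genes 18.1% were called lower in CD34+ cells. Some features of the arrays moved with the groups. The SD over all probe sets was 1.92 to 2.07 on CD34+ arrays 1, 3 and 5 and 2.19 to 2.32 on the other 9, so most counts of calls are also given without them. For Actb, the 3' control probe set exceeded the 5' one by 3.95 to 5.65 in CD34+ and 1.82 to 3.24 in CD34- arrays. The part of this gap in the results was not tested. In these bulk samples, fewer cells of a type and less RNA per cell cannot be told apart.

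Most forkhead genes did not pass the test between fractions. With limma over all genes (two-sided, Benjamini-Hochberg adjusted p under 0.05), 8 of the 37 members passed, or 21.6%, where 26.1% of all genes did. The members rose in 5 cases, Foxp1, Foxc2, Foxc1, Foxh1 and Foxp4, against 7.99% of all genes called higher in CD34+ cells. They fell in 3, Foxk1, Foxq1 and Foxj2, against 18.1% of all genes called lower. The median log2 difference over the 37 was 0.14, beside 0.04 over all genes. Arrays of the fractions did not overlap for 4 members (10.8%), where 12.9% of all genes did not overlap. Foxp1, Foxc2 and Foxp4 lay above (4.17% of all genes) and Foxk1 below (8.77%). Without CD34+ arrays 1, 3 and 5, 4 members were higher (Foxp1, Foxc1, Foxc2, Foxp4) and 1 lower (Foxk1), where 8.81% and 10.4% of all genes were called, 19.2% in all.

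**Figure D1:**
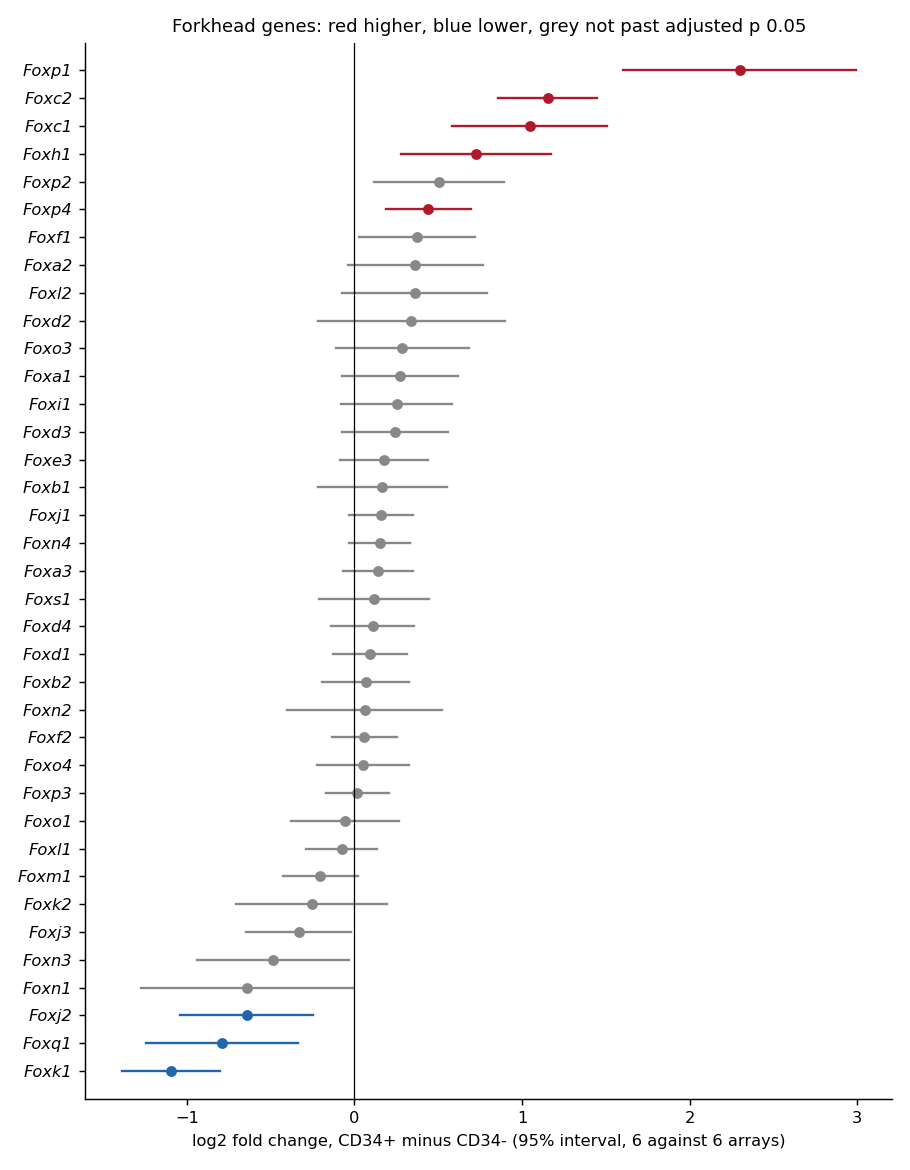
Log2 fold change of each of the 37 forkhead genes, CD34+ minus CD34-, as a point with its 95% interval from limma (6 against 6 arrays). Foxp1 stands highest at 2.30 and Foxk1 lowest at -1.10, and 29 of the intervals belong to genes that did not pass (grey).

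The FOXP subfamily held the largest rise. FOXP proteins are mostly repressors that act as pairs through a leucine zipper. Foxp1 read 9.10 on the lowest, 10.21 at the median and 11.22 on the highest CD34+ array, and 7.40, 7.66 and 8.44 on CD34- arrays. Every CD34+ array lay above every CD34- array. The mean was 4.92-fold higher in CD34+ cells (log2 fold change 2.30, SE 0.32, limma adjusted p = 0.000209), and the difference was 2.73 without CD34+ arrays 1, 3 and 5. The array carries 8 probe sets for Foxp1, and all 8 were higher in CD34+ cells, by 0.28 to 2.30. Of these, 7 passed when adjusted over all 45037 probe sets and 6 did not overlap between fractions, where 21.5% of all probe sets passed and 10.9% did not overlap.

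Foxp1 and Foxc1 are shown by the bases in front of their annotated starts, because both rose and both are tied to bulge quiescence. RefSeq (GRCm38.p6) gives 3 starts of Foxp1 and 1 of Foxc1 in the table used here. Each line holds the 250 bases before the start, 5′ to 3′ on the gene's strand, with matches to the forkhead motif in capitals.
Foxp1 upstream start, chr6:99520994-99521243, minus strand: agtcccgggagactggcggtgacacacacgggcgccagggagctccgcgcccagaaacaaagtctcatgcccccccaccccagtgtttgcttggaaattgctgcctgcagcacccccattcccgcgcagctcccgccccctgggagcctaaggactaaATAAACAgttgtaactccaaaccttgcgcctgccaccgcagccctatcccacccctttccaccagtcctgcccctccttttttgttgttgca
Foxp1 middle start, chr6:99266516-99266765, minus strand: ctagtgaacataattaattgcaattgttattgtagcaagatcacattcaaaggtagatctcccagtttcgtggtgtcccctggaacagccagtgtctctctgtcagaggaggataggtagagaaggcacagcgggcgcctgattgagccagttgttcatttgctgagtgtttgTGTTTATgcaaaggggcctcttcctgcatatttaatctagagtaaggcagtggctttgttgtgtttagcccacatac
Foxp1 downstream start, chr6:99028299-99028548, minus strand: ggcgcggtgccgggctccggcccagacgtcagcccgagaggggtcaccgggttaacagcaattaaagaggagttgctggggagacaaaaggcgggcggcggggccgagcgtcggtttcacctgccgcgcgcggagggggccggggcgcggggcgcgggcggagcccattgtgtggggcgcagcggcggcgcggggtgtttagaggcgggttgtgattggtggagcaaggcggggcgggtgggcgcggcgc
Foxc1, chr13:31806396-31806645, plus strand: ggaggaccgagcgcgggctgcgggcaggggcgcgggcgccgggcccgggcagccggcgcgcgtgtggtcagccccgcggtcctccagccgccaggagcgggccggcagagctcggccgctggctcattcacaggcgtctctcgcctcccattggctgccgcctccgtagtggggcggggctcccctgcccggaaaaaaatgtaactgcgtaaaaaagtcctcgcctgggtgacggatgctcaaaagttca
The motif was GTAAACA or ATAAACA on either strand. It matched at the upstream start of Foxp1, 92 bases before it, and at the middle start, 77 bases before it. The downstream start of Foxp1 and the region of Foxc1 held no such letters in this window. Over the 24 members with a region in the table, 4 of 29 regions (13.8%) held the motif, against 7.1% of all 32851 regions of the same length. The other matches were in Foxa1 and Foxp3. The GC content of the regions was 60.8%, 45.2% and 74% for Foxp1 from upstream to downstream and 70.8% for Foxc1. E2F motifs (TTTCCCGC or TTTGGCGC, either strand), the kind of site that E2F and RB complexes use, were in 0 of the 29 regions and in 1.3% of all. With so low a share and 29 regions, the 0 does not set the members apart. The CHR motif TTTGAA was in 3 regions (10.3%, beside 16.0% of all), the Foxp1 middle start among them. The TCF/LEF motif CTTTGAT was in 0 (beside 3.21%). Foxm1 and the called genes Foxc2, Foxh1, Foxk1 and Foxq1 had no region in the table. A match is a string of letters and was not tested for binding.

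Among the other FOXP genes, Foxp4 rose by less. It read 5.43, 5.64 and 6.14 (lowest, median, highest) on CD34+ arrays and 5.08, 5.24 and 5.32 on CD34- arrays, which did not overlap. Its log2 fold change came to 0.44 (SE 0.12, limma adjusted p = 0.0147). Another probe set of Foxp4 was higher by 0.62 (adjusted p = 0.00259 over all probe sets), and the remaining one was at 0.01 (adjusted p = 0.969). Foxp2 did not pass (0.50, SE 0.18, limma adjusted p = 0.0553). On CD34+ arrays 1, 3 and 5 its mean was 4.74, and on CD34+ arrays 2, 4 and 6 it was 4.01, close to the 3.87 of CD34- arrays. Foxp3, the factor of regulatory T cells, read 2.66 to 3.06 in CD34+ and 2.75 to 2.94 in CD34- arrays, near the Trpn control probe sets (2.31 to 2.95), which mark the low end of the scale. Its difference was 0.02 (limma adjusted p = 0.890, 95% interval -0.17 to 0.21). T cell markers were lower in the same CD34+ fraction in 7 of 11 cases and higher in 0, with the mean over the list at 5.54 to 6.09 in CD34+ and 6.64 to 7.12 in CD34- arrays. Those lower were Cd3g (-3.29), Ptprc (-2.80), Trat1 (-2.30), Cd3d (-2.18), Ikzf2 (-0.84), Il2rb (-0.70) and Cd3e (-0.60). In CD34+ arrays Ikzf2 still read 9.76, where Cd3g read 5.78 and Ptprc 6.64. The counts were also 7 and 0 without CD34+ arrays 1, 3 and 5. Over all genes 18.1% were lower and 7.99% higher, and without the 3 arrays 10.4% and 8.81%. Among the T cell markers known from regulatory T cells, Ikzf2 fell (-0.84, limma adjusted p = 0.000680), while Il2ra (-0.04, adjusted p = 0.794) and Ctla4 (-0.01, adjusted p = 0.958), with means of 3.12 and 3.33 in CD34+ arrays, did not pass. In the same list Tnfrsf4 (-0.29, adjusted p = 0.0794) and Cd4 (0.37, adjusted p = 0.0681), the 1 marker above 0, did not pass either. All of these genes were chosen once their values had been seen.

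**Figure D2:**
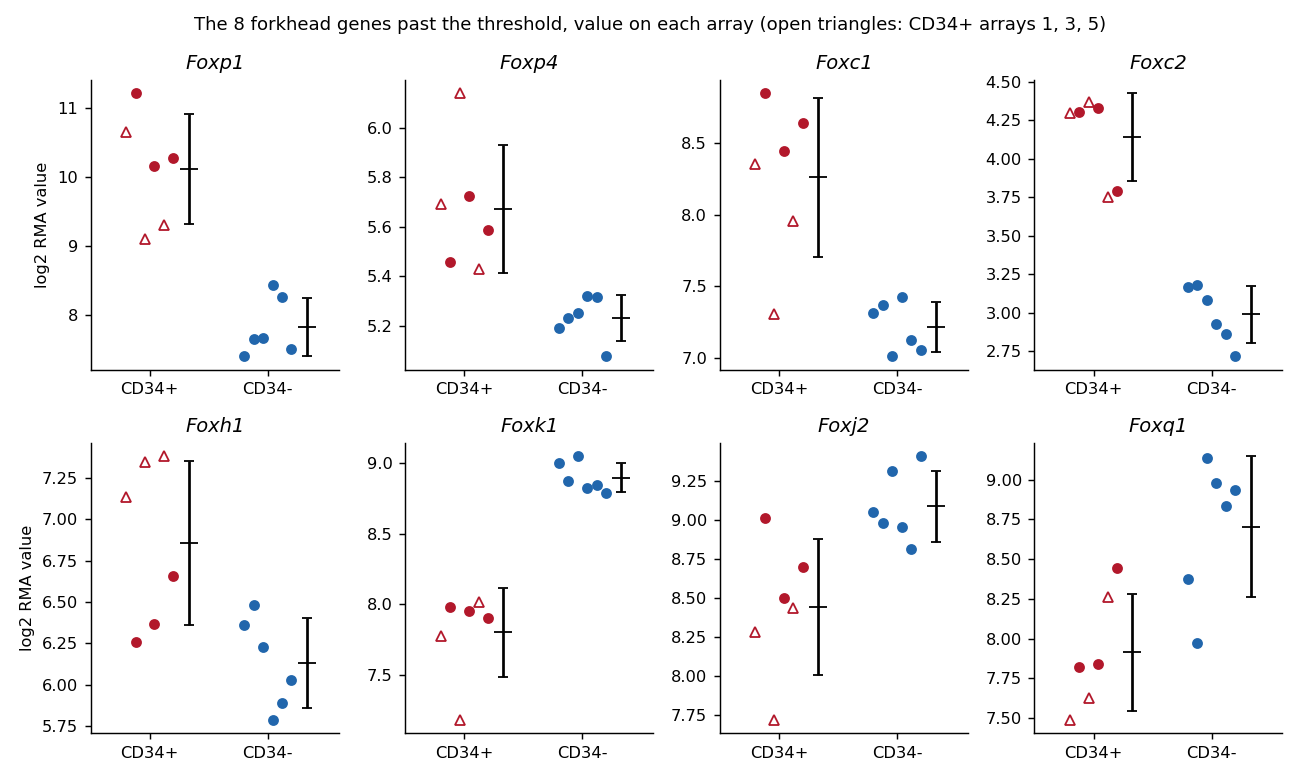
Log2 RMA value on each array for the 8 forkhead genes that passed, in arrays of CD34+ (red) and CD34- cells (blue), with the mean and SD of 6 arrays beside each group in black. CD34+ arrays 1, 3 and 5 are open triangles. Foxp1, Foxp4, Foxc2 and Foxk1 do not overlap, and the open triangles of Foxh1 sit above its other points.

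The FOXC pair rose too. FOXC1 and FOXC2 are close relatives with wide roles in mesenchyme and vessels. Foxc1 read 7.31, 8.40 and 8.85 on CD34+ arrays and 7.01, 7.22 and 7.43 on CD34- arrays, with CD34+ array 3 alone inside the CD34- range. It was 2.06-fold higher in CD34+ cells (log2 fold change 1.05, SE 0.21, limma adjusted p = 0.00283), and 1.43 without CD34+ arrays 1, 3 and 5, where the arrays did not overlap. The second probe set of Foxc1 did not share the rise (6.54 in CD34+ and 6.5018 in CD34- arrays, log2 fold change 0.04, adjusted p = 0.940 over all probe sets), and the mean of both probe sets did not pass (0.54, adjusted p = 0.142). Foxc2 read 3.75, 4.30 and 4.37 on CD34+ arrays and 2.72, 3.00 and 3.18 on CD34- arrays. All CD34+ arrays were above all CD34- arrays, by 1.15 on the log2 scale (SE 0.14, limma adjusted p = 6.57e-05), also 1.15 without the 3 arrays. Its CD34- mean of 2.99 lay at the level of the Trpn probe sets, so the 2.22-fold difference may be compressed. Of all genes, 7.99% were called higher in CD34+ cells and 18.1% lower (8.81% and 10.4% without CD34+ arrays 1, 3 and 5). Markers of fibroblasts, cells that can express both FOXC genes, were higher in CD34+ cells in 4 of 10 cases and lower in 1. Without the 3 arrays the counts were 3 and 1. Those higher were Col1a2 (3.15, limma adjusted p = 1.50e-06), Dcn (2.21, adjusted p = 0.00115), Col1a1 (1.14, adjusted p = 0.00115) and Lum (0.63, adjusted p = 0.0310), and the lower one was Thy1 (-1.90, adjusted p = 0.000357), which T cells also carry. The mean over that list was 6.26 to 6.62 on CD34+ arrays 1, 3 and 5, 5.38 to 5.74 on CD34+ arrays 2, 4 and 6, and 4.65 to 5.54 on CD34- arrays. Foxc1 was lower on the first 3 of these (mean 7.87) than on CD34+ arrays 2, 4 and 6 (8.65), while Foxc2 read 4.14 on both sets. The order seen for Foxc1 held for all 11 members with a mean of 7 or more in a fraction. Of all genes in that range, 6.72% were higher on CD34+ arrays 1, 3 and 5. The part of fibroblasts in the FOXC values was not tested. Of 7 endothelial markers 0 passed in the limma fit, and 2 (Eng and Emcn) had an unadjusted p under 0.05.

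Genes linked by mouse studies to Foxc1 and Foxp1 in the resting bulge were described from a short list of 5. In CD34+ cells 3 rose and 0 fell, where 7.99% of all genes rose. They were the growth factor Fgf18 (log2 fold change 5.81, SE 0.29, adjusted p = 3.12e-08), the bone morphogenetic protein Bmp6 (2.04, SE 0.31, adjusted p = 0.000401) and the calcineurin-driven factor Nfatc1 (1.41, SE 0.21, adjusted p = 0.000323). Bmp2 (-0.33, adjusted p = 0.371) and the cadherin Cdh1 (-0.47, adjusted p = 0.128) did not pass. The same 3 to 0 counts were found without CD34+ arrays 1, 3 and 5. The list was chosen with earlier results of these data known.

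Foxh1, a partner of SMAD proteins in embryonic Nodal signalling, passed as well, and its values split by array. It read 7.14, 7.34 and 7.38 on CD34+ arrays 1, 3 and 5 and 6.26, 6.36 and 6.66 on CD34+ arrays 2, 4 and 6, against 5.79 to 6.48 on CD34- arrays. It differed by 0.73 (SE 0.21, limma adjusted p = 0.0205) with all arrays and 0.30 (SE 0.16, adjusted p = 0.259) without CD34+ arrays 1, 3 and 5. Without CD34- array 4 the adjusted p was 0.0510. Its other probe sets were at 0.17 and 0.13 and did not pass.

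The genes that fell were Foxk1, Foxj2 and, in the hair group, Foxq1. FOXK1 is a repressor of autophagy genes, and Foxk1 showed the clearest fall. It read 7.18, 7.93 and 8.02 on CD34+ arrays and 8.79, 8.86 and 9.05 on CD34- arrays, with no overlap. It was 2.14-fold lower in CD34+ cells (log2 fold change -1.10, SE 0.14, limma adjusted p = 8.28e-05), and the difference was -0.95 without CD34+ arrays 1, 3 and 5. Its other probe sets, with means of 3.83 and 4.47 over the 12 arrays, were at 0.13 and 0.09 and did not pass, and the mean of all 3 was at -0.29, still past the threshold. The paralogue Foxk2 did not pass (-0.26, limma adjusted p = 0.366), and was at 0.19 without the 3 arrays. Of its other probe sets, 1 was higher by 0.52 (adjusted p = 0.0400 over all probe sets).

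Foxj2 was lower in CD34+ cells. It read 7.72, 8.47 and 9.02 on CD34+ arrays and 8.82, 9.01 and 9.41 on CD34- arrays, which overlap through CD34+ array 2. It differed by -0.64 (SE 0.18, limma adjusted p = 0.0201), and -0.35 (adjusted p = 0.151) without CD34+ arrays 1, 3 and 5. Its other probe set, at 4.13 and 4.00, did not share the fall (0.13, adjusted p = 0.613 in the fit of all probe sets). Foxj3, its paralogue, was at -0.33 (adjusted p = 0.105). Foxj1, the master factor of motile cilia, read near the low end in both fractions, with a difference of 0.16 (adjusted p = 0.192).

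Foxq1, needed for the medulla of the hair shaft, was lower in CD34+ cells by both of its probe sets. The one used read 7.49, 7.83 and 8.44 on CD34+ arrays and 7.97, 8.88 and 9.13 on CD34- arrays. The fractions overlapped through CD34- arrays 1 and 2. It was 1.73-fold lower (log2 fold change -0.79, SE 0.21, limma adjusted p = 0.0142), and the other probe set differed by -0.89 (adjusted p = 0.00229, fitted on all probe sets). Dropping CD34+ arrays 1, 3 and 5 left -0.67 (adjusted p = 0.0873) for the brighter one, and averaging consecutive arrays gave an adjusted p of 0.0614, neither past the threshold.

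Foxn1 was lower on average and did not pass in the main fit. It read 4.46, 5.33 and 6.40 on CD34+ and 5.78, 6.08 and 6.69 on CD34- arrays (log2 fold change -0.64, SE 0.30, limma adjusted p = 0.122). Its mean was 5.01 on CD34+ arrays 1, 3 and 5 and 6.04 on CD34+ arrays 2, 4 and 6, near the 6.17 of CD34- arrays. Foxn1 passed without CD34+ array 4 (-0.80, limma adjusted p = 0.0435) and without CD34+ array 6 (-0.82, adjusted p = 0.0464). It also passed with array number as a block (adjusted p = 0.0284), and was at -0.13 (adjusted p = 0.800) without CD34+ arrays 1, 3 and 5. Among 11 measured genes of the hair shaft programme around Foxn1 and Foxq1, 1 rose and 2 fell, with a median of 0.12 (1 and 2 also without the 3 arrays). The share that passed was 27.3%, close to the 26.1% of all genes. All but Hoxc13, Msx2 and Bmp4 had both means under 5, with Krt33a at 3.37 in CD34+ and 3.74 in CD34- arrays. Of all genes in that low range 10.1% passed and 83.1% were above 0, so the list says little about the hair keratins. The rise was that of Hoxc13 (2.11, SE 0.29, adjusted p = 0.000165), a homeobox factor upstream of both genes in the hair. The falls were those of Bmp4 (-1.81, SE 0.22, adjusted p = 8.22e-05) and the hair keratin Krt33a (-0.37, SE 0.12, adjusted p = 0.0419), which lost its call on leaving out any of 9 single arrays. Foxn3, a checkpoint repressor, was lower by 0.49 to 0.65 on all 4 of its probe sets, with 0 past the threshold (limma adjusted p = 0.104 for the one used). It was called lower with the mean of its 4 probe sets, with means of consecutive arrays and without CD34+ array 4. Foxn2 (0.06) and Foxn4 (0.15) did not pass.

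FOXO genes did not pass by the probe sets used. Foxo1 read 8.98, 9.40 and 9.78 on CD34+ and 9.10, 9.48 and 9.61 on CD34- arrays, a difference of -0.06 (95% interval -0.38 to 0.26, limma adjusted p = 0.791). Foxo3 was at 0.29 (-0.11 to 0.68, adjusted p = 0.256) and Foxo4 at 0.05 (-0.23 to 0.33, adjusted p = 0.783). Other probe sets did move. A probe set of Foxo3 read 6.22 to 7.12 on CD34+ and 7.37 to 8.02 on CD34- arrays, without overlap (-0.75, SE 0.16, adjusted p = 0.00527 over all probe sets), opposite in sign to the one used. For Foxo1, 2 probe sets were lower, by -0.65 (adjusted p = 0.0116) and -0.54 (adjusted p = 0.0150), and the mean of its 4 probe sets passed (-0.30, adjusted p = 0.00690). No single direction of Foxo3 RNA holds over its probe sets. Of the 4 of Foxo1, 1 was above 0, at 0.04 (adjusted p = 0.784 over all probe sets), with means of 4.01 in CD34+ and 3.97 in CD34- arrays.

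**Figure D3:**
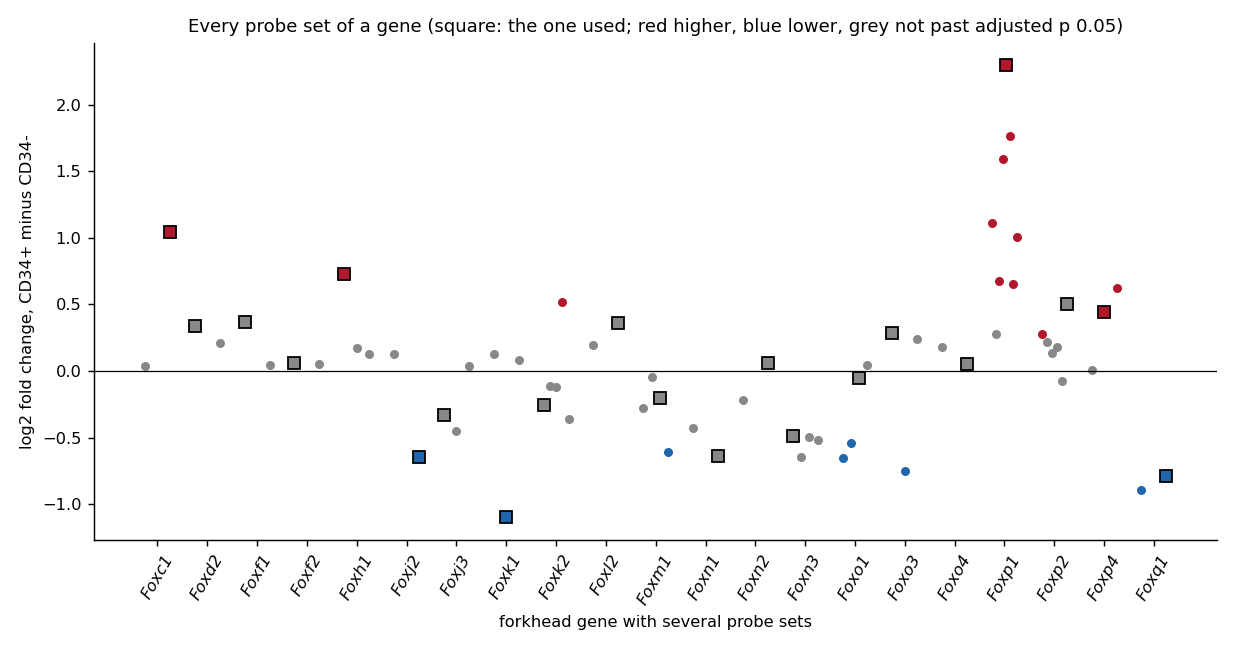
Log2 fold change of every probe set of the 21 forkhead genes that have several, with the probe set used as a square and the others as circles. Red passed higher, blue passed lower and grey did not pass, adjusted over all 45037 probe sets. Foxp1 lies above 0 with all 8, Foxq1 below with both, and Foxo3 and Foxk2 on both sides.

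In all, 22 of the 82 forkhead probe sets passed (26.8%, beside 21.5% of all probe sets), 14 higher and 8 lower (7.64% and 13.9% of all probe sets), and 7 of the 14 were those of Foxp1. For 5 genes the probe set used did not pass and another did. These were Foxk2, Foxm1, Foxo1, Foxo3 and Foxp2.

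Kinases that restrain FOXO were among the genes that fell. Of 16 measured genes of insulin and AKT signalling 5 fell and 1 rose in CD34+ cells, with a median of -0.06, where 18.1% of all genes fell and 7.99% rose. Pik3cb, a catalytic subunit of PI 3-kinase, was at -1.08 (SE 0.21, adjusted p = 0.00184), Akt2 at -0.96 (SE 0.14, adjusted p = 0.000320) and Akt1 at -0.80 (SE 0.19, adjusted p = 0.00823). The rise, looked up after it was seen, was that of the regulatory subunit Pik3r1 (0.79, adjusted p = 0.0200). It did not pass with the mean of its probe sets (0.24, adjusted p = 0.173) or with each array centred on its median (0.69, adjusted p = 0.0602). Without CD34+ arrays 1, 3 and 5, 3 fell and 3 rose, and Akt1 was at -0.46 (adjusted p = 0.0687). After a further quantile normalization 5 were higher, and on even-numbered arrays 2 were lower. Akt1 also did not pass with the mean of its probe sets (-0.24, limma adjusted p = 0.0553) or on even-numbered arrays (-0.35, adjusted p = 0.324).

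Of 23 measured genes known as FOXO targets 10 fell and 2 rose, with a median of -0.20. Over all genes, too, falls (18.1%) outnumbered rises (7.99%). Rbl2, a pocket protein of the RB family, was at -1.38 (SE 0.25, adjusted p = 0.00109), the muscle atrophy ligase Fbxo32 at -1.25 (SE 0.24, adjusted p = 0.00155) and Klf2 at -1.07 (SE 0.36, adjusted p = 0.0410). Klf2 lost its call on leaving out any of 7 single arrays. The rises, looked up after they were seen, were Cited2 (0.78, adjusted p = 0.0127) and Igfbp1 (0.30, adjusted p = 0.0177), which read 2.92 and 2.62, at the level of the Trpn controls. The cell cycle inhibitor Cdkn1b did not pass (-0.08, adjusted p = 0.770). Without the 3 arrays 5 fell and 5 rose, and on even-numbered arrays 1 fell and 1 rose. The counts of falls were 6 without CD34+ array 1, without CD34+ array 5 or without CD34- array 1, and 6 after a further quantile normalization, where 4 were higher. Without CD34+ array 5, 3 were higher. Irs2 and Insr stand in both lists.

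Foxm1 did not pass by the probe set used, while most of its known targets did. That probe set read 5.62, 5.77 and 5.96 on CD34+ and 5.79, 5.93 and 6.24 on CD34- arrays (log2 fold change -0.20, SE 0.10, limma adjusted p = 0.161). All 4 of its probe sets were lower, by 0.04 to 0.61, and the lowest did not overlap between fractions, at 3.59, 3.72 and 4.09 on CD34+ and 4.21, 4.33 and 4.68 on CD34- arrays (-0.61, SE 0.11, adjusted p = 0.00138 over all probe sets). The mean of the 4 passed (-0.28, adjusted p = 0.0110). Of 15 measured FOXM1 targets 13 fell and 0 rose in CD34+ cells, the 13 without overlap, with a median of -1.30. Over all genes 18.1% fell and 8.77% were lower without overlap. Top2a (-1.74, SE 0.22, adjusted p = 9.35e-05), the mitotic kinases Aurkb (-1.62, SE 0.17, adjusted p = 2.23e-05) and Nek2 (-1.60, SE 0.19, adjusted p = 6.60e-05) fell most. Cdc25b (-0.19, adjusted p = 0.570) and Cks1b (-0.09, adjusted p = 0.760) did not pass. Without CD34+ arrays 1, 3 and 5, 13 fell and 0 rose with a median of -1.03, and on even-numbered arrays 9 fell.

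**Figure D4:**
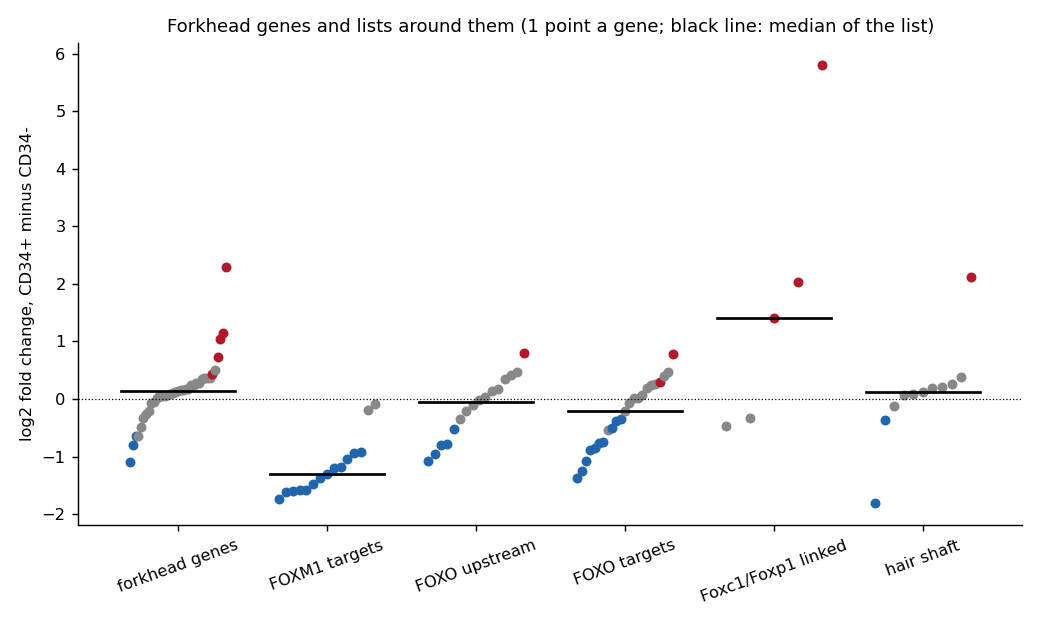
Log2 fold change of each gene, CD34+ minus CD34-, for the 37 forkhead genes and 5 lists of genes around them, with the median of each list as a black line. Red passed higher, blue passed lower and grey did not pass. The FOXM1 targets centre on -1.30 and the forkhead genes on 0.14.

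The remaining members read at the low end of the scale. In 19 of the 37, both fraction means were under 5. These were Foxa1, Foxa2, Foxa3, Foxb1, Foxb2, Foxc2, Foxd1, Foxd2, Foxd3, Foxd4, Foxe3, Foxf2, Foxi1, Foxj1, Foxl1, Foxl2, Foxp2, Foxp3 and Foxs1, factors known mainly from endoderm, neural tube, mesenchyme, cilia, eye, ovary or T cells. Of them Foxc2 alone passed, and the other 18 differed by -0.08 to 0.50. With 12 arrays 18 of the 19 were above 0, and without CD34+ arrays 1, 3 and 5 it was 7 of 19. Of all genes in that range 83.1% and 57.6% were above 0, and 10.1% passed. In 17 of the 19 the mean of CD34+ arrays 1, 3 and 5 was above that of CD34+ arrays 2, 4 and 6. The same held for 81.3% of the 7909 genes there. Foxf1, a factor of gut and lung mesenchyme, read 5.27 and 4.90 in the 2 fractions and did not pass (0.37, adjusted p = 0.103).

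At the bright end the tilt ran the other way. Of the 11 members with a mean of 7 or more in a fraction, Foxc1, Foxj2, Foxj3, Foxk1, Foxk2, Foxn2, Foxn3, Foxo1, Foxo3, Foxp1 and Foxq1, the mean of CD34+ arrays 1, 3 and 5 was below that of CD34+ arrays 2, 4 and 6 in all 11. It was above in 6.72% of the 6127 genes in that range. Of the 11, 5 passed (45.5%), where 41.2% of the genes in that range did. Differences above 0 were 4 of 11 (36.4%) with 12 arrays and 6 of 11 (54.5%) without the 3 arrays, where all genes in that range gave 25.3% and 43.8%. The spread was wider in CD34+ arrays for 33 of the 37 members (89.2%, beside 84.2% of all genes), with a median SD of 0.35 in CD34+ and 0.15 in CD34- arrays.

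**Figure D5:**
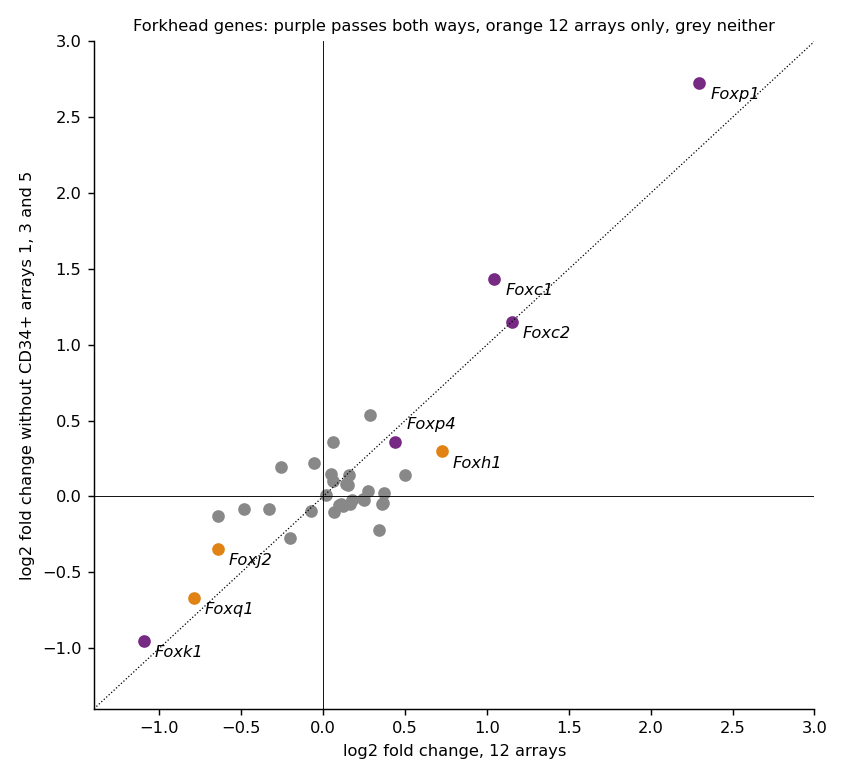
Log2 fold change of the 37 forkhead genes with all 12 arrays (horizontal) and without CD34+ arrays 1, 3 and 5 (vertical), with the line of equal values dotted. Foxp1, Foxc1, Foxc2, Foxp4 and Foxk1 (purple) passed both ways, Foxh1, Foxj2 and Foxq1 (orange) with 12 arrays alone.

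Lists of other cell types were set beside these values. Besides the T cell, fibroblast and endothelial lists, 2 of 7 melanocyte markers were higher and 1 lower, 1 of 4 smooth muscle markers was higher, and 4 of 7 keratinocyte markers were lower in CD34+ cells. Without CD34+ arrays 1, 3 and 5, 1 melanocyte marker was higher and 1 lower, the smooth muscle marker Myh11 no longer passed, and 3 keratinocyte markers were lower. Over all genes 7.99% were higher and 18.1% lower with 12 arrays, and 8.81% and 10.4% without the 3 arrays. The brightest T cell markers were Ikzf2 (9.76 in CD34+ and 10.60 in CD34- arrays) and Ptprc (6.64 and 9.44), and the brightest fibroblast markers were Vim (9.32 and 8.64) and Thy1 (6.73 and 8.63). Those of the endothelial list were Eng (5.89 and 5.64) and Kdr (5.02 and 4.91), of the melanocyte list Mitf (10.15 and 7.01) and Dct (6.46 and 6.82), and of the smooth muscle list Acta2 (7.71 and 7.29) and Tagln (5.95 and 5.66). Rb1, the centre of the pathway the study asked about, was at 8.99 ± 0.40 and 8.90 ± 0.14. The part of these cells in the forkhead results was not tested.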

How the data were processed

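Total RNA of MACS-sorted CD34+ and CD34- keratinocytes was hybridised to 12 Affymetrix mouse arrays. The deposited values are log2 expression per probe set, made by the authors with RMA per the submitters' processing notes. The version, and whether all arrays were normalized together, are not given in the sources used here. Of 45101 probe sets 64 controls were left out. The platform's probe annotation in GEO, its symbols brought up to date by Entrez number against RefSeq (GRCm38.p6), tied 34945 probe sets to 1 gene, 932 to several and 9160 to none. Of the probe sets of each gene, the one with the highest mean over the 12 arrays was used.

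The test was limma 3.58.1 (lmFit and eBayes without a block, R 4.3.3), fitted on all 18193 genes, or on all 45037 probe sets where named. The fit was tested on simulated data. The number of arrays limits the precision. RMA gives no detection call. Whole arrays of different fractions correlated at 0.93 to 0.98. A check by array number gave -0.27 to 0.50 for same-numbered arrays, and 4 of 6 pairs exceeded 0.1. These lie far below, so they are not correlations of whole expression profiles. The check does not decide whether numbers pair arrays. The labels name no such pairing, so the main fit has no block, and a fit with array number as a block is given below. Promoters were read from RefSeq's table for 24 of 37 members. Members and lists were chosen with earlier results of these data known. Named with values were all members past the threshold, Foxc1, Foxp1, Foxn1, Foxm1, Foxo1, Foxo3, Foxo4, Foxq1, Foxi3, Foxe1, Foxp3 and the 5 largest changes whatever their result, up to 3 passing genes of each of 5 partner lists, the 2 brightest of each of 6 marker lists, and Cd34, Rb1 and Trpn as references. Foxi3 and Foxe1 were not analysed here, nor were some genes of the lists.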

Additional observations from a re-analysis of the deposited data

Results flagged for a closer look

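Within a fraction, 6 of the 74 groups of 6 arrays (37 genes in 2 fractions) had 1 array far from the others by Dixon's test at 95%, which chance gives in about 1 of 20 groups. On CD34+ array 3, Foxk1 read 7.18 where the other 5 read 7.77 to 8.02, and Foxb1 read 4.27 where the others read 2.95 to 3.22. On CD34- array 3, Foxa3 read 2.32 (others 2.55 to 2.65) and Foxb2 read 3.86 (others 3.57 to 3.65). On CD34+ array 2, Foxl1 read 3.58 (others 3.82 to 3.94). On CD34- array 2, Foxo1 read 9.10 (others 9.45 to 9.61). Of these genes Foxk1 alone passed the comparison, and it was at -0.97 without CD34+ array 3.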

How the results depend on the processing

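Among the 8 forkhead calls, Foxp1, Foxc2 and Foxk1 kept theirs under every alternative run on them, and none of the 8 changed sign in any of the 23 settings. The count past the threshold was 8 and became 5 without CD34+ arrays 1, 3 and 5 (19.2% of all genes). It became 4 on even-numbered arrays (3 against 3, where 7.43% of all genes passed). Leaving out single arrays gave 7 to 12 (4 to 7 higher, 3 to 5 lower), where 20.2% to 32.7% of all genes passed. The 12 came without CD34+ array 4, the run with the 32.7%. The higher count of 5 became 8 with means of arrays 1-2, 3-4 and 5-6 (9.90% of all genes) and 3 on even-numbered arrays (3.44%). Consecutive arrays of a fraction did not resemble each other (limma consensus correlation -0.16). Each of their CD34+ means joins 1 of arrays 1, 3 and 5 with 1 of arrays 2, 4 and 6. These means therefore cannot show whether arrays of 1 RNA make the p-values too small. The lower count of 3 became 1 after a further quantile normalization (13.7% of all genes), without the 3 arrays (10.4%) and on even-numbered arrays (3.99%). It became 6 with the mean of all probe sets of a gene (18.6%) and 5 without CD34+ array 4 (21.4%). Foxp4 was lost on even-numbered arrays (0.38, adjusted p = 0.134). Foxj2 and Foxq1 did not pass after a further quantile normalization (-0.34 and -0.48). Array number as a replicate block gave 6 higher and 4 lower, where 8.09% and 19.4% of all genes were called. It called Foxp2 and Foxn1 in addition (Foxn1 -0.64, adjusted p = 0.0284). In the check by array number, 3 of the 6 CD34+ arrays correlated best with their own number. Scaling moved the median over all genes from 0.04 to -0.06 with centring on the median, and the share of lower calls from 69.4% to 80.8%, or to 54.3% with quantile normalization.

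Differences that changed sign were all of genes that did not pass. Foxo1 was at 0.23 after quantile normalization, 0.22 without the 3 arrays, 0.29 on even-numbered arrays and from -0.1328 to 0.0281 (without CD34+ array 3) on leaving out 1 array. Foxo3 was at -0.0761 with the mean of its probe sets, and passed after quantile normalization (0.59). Foxo4 was at -0.0518 with centring and from -0.0176 (without CD34+ array 6) to 0.1197 on leaving out 1 array. Foxp3 was at -0.0793 with quantile normalization, -0.0841 with centring and from -0.0161 to 0.0632 on leaving out 1 array, below 0 without CD34+ array 1, CD34+ array 2 or CD34- array 4. Cdc25b was at 0.11, 0.21 and 0.30, and Cks1b at 0.19, 0.0272 and 0.21, after quantile normalization, without the 3 arrays and on even-numbered arrays, and Cks1b from -0.2243 to 0.0041 (without CD34- array 3) on leaving out 1 array. Foxm1 passed with centring (-0.3053, adjusted p = 0.0306). The causes were not tested. Low signal limits what can be said of members near the Trpn level.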
